A study of Mus musculus with 59 samples.

Results

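The circadian clock genes described here are *Clock*, *Npas2*, *Per1*, *Per2*, *Per3*, *Cry1*, *Cry2*, *Nr1d1*, *Nr1d2* and *Dbp*, 10 of the 21000 protein-coding genes of the mouse annotation. BCL6, PPARα and PPARδ peaks in liver were taken as theirs if the peak center lay inside one of these genes, or if the nearest transcription start site (TSS) within 100 kb belonged to one of them. This rule gave 140 of 102931 peaks. Peaks whose centers lay within 200 bp of each other, the distance used in the study, were joined into 1 site, which left 56 of 40478 sites at the clock genes.

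The peaks came from ChIP-seq of livers of male C57BL/6 mice. BCL6, PPARα and PPARδ were each mapped in wild-type mice that fed ad libitum and in wild-type mice fasted overnight, which made 6 lists. A further list held BCL6 in male ad libitum fed *Bcl6* fl/fl mice, which carry floxed alleles without Cre and served as controls of the liver knockout. It is called the floxed list below. Each list was made over 3 libraries, 1 animal each, so 21 of the 59 samples of the series stand behind the 7 lists. The lists give positions alone, without tag counts or any measure of strength. A site was therefore called or not called in a list, no value had a replicate error, no test between fed and fasted livers was possible, and a missing call does not show absence of binding. The hour at which the livers were collected and the age of each mouse are not given in the sources used here. Whole liver holds hepatocytes and other cells. The 6 hepatocyte markers examined (*Alb*, *Ttr*, *Apoa1*, *Hnf4a*, *Cps1*, *Tat*) all had sites, 64 in sum, whereas 3 T cell markers had 3 sites at 1 gene, 3 Kupffer cell markers had 1 site and 3 B cell markers had 0.

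The circadian clock is a feedback loop of transcription that runs in nearly every cell and in liver is strongly shaped by the time of feeding. CLOCK, or its relative NPAS2, binds E-box sequences with a partner protein and turns on the *Per* and *Cry* genes, whose proteins then repress it. The same elements drive *Nr1d1* and *Nr1d2*, which encode the REV-ERB repressors, and *Dbp*, an activator of output genes through D-box sequences. BCL6 is a zinc finger repressor, and PPARα and PPARδ are fatty acid receptors of the nuclear hormone receptor family that bind direct repeats together with RXR. PPARα is known as the main driver of fat oxidation genes in fasted liver.

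To show the DNA under these calls, the site called in the most lists was taken for each gene, with ties going to the site nearest the TSS. Each window is 200 bases of RefSeq GRCm38.p6, the assembly of mm10, centered on the site and read 5′ to 3′ on the plus strand. *Npas2*, *Per1* and *Dbp* lie on the plus strand and the other genes on the minus strand. Capitals mark matches to 5 elements searched on both strands. These were the E-box CACGTG, the D-box TTATGTAA, the element TAGGTCA that ROR and REV-ERB receptors bind (RORE), the BCL6 element TTCCTAGAA with up to 1 mismatch, and a direct repeat of AGGTCA with a 1-base spacer (DR1), the PPAR element, with up to 2 mismatches. The RORE shares the letters AGGTCA with the DR1, so matches can overlap. The sites chosen by this rule at *Per1* and *Dbp* overlap exons that the annotation gives as leader sequence and are not printed.
*Clock*, 1324 bp upstream, intergenic, chr5:76306017-76306216: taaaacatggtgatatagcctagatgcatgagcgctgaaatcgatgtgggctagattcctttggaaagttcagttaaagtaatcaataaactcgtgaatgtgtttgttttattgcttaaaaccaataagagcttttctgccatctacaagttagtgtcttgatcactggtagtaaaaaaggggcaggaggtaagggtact
*Npas2*, 1380 bp upstream, intergenic, chr1:39192792-39192991: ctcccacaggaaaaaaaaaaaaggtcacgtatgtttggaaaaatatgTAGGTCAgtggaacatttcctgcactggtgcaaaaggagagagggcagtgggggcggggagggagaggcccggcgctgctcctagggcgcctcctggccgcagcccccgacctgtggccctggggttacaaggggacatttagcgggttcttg
*Per2*, 22665 bp downstream in intron 9, chr1:91436564-91436763: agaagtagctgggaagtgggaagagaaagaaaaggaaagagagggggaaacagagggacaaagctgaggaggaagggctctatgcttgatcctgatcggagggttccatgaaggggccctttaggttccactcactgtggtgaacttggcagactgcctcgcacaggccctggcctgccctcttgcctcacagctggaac
*Per3*, 586 bp upstream in the promoter, chr4:151045152-151045351: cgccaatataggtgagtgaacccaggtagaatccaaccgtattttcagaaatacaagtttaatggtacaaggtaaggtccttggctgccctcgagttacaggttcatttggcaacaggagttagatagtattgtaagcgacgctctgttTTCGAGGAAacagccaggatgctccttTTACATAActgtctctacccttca
*Cry1*, 5121 bp upstream, intergenic, chr10:85190076-85190275: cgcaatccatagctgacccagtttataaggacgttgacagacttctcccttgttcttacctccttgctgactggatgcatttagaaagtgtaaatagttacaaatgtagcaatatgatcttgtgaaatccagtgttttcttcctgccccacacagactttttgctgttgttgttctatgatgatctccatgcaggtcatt
*Cry2*, 11958 bp upstream, intergenic, chr2:92445928-92446127: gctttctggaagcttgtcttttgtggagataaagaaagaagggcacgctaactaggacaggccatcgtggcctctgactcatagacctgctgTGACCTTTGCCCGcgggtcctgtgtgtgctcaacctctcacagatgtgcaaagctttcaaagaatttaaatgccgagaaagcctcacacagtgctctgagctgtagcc
*Nr1d1*, 8061 bp upstream, in a predicted non-coding RNA, chr11:98783339-98783538: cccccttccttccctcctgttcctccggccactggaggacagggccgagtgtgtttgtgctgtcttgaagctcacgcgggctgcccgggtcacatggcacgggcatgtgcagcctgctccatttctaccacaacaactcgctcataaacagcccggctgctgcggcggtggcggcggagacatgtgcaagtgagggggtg
*Nr1d2*, 4375 bp downstream in intron 1, chr14:18234632-18234831: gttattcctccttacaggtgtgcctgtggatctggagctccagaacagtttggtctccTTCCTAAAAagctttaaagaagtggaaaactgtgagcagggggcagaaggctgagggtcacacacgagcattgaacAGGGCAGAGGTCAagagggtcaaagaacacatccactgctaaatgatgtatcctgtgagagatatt

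Of these 8 windows, 4 held at least 1 match. The *Npas2* window held a RORE, the *Per3* window a D-box and a BCL6 element with 1 mismatch, the *Cry2* window a DR1 with 2 mismatches, and the *Nr1d2* window a BCL6 element and a DR1 with 1 mismatch each. The *Clock* and *Cry1* windows, which lay under peaks of 6 of the 7 lists, held no match to any of the 5 elements.

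A second set is shown because it holds E-boxes, the element through which the clock drives these genes. It was chosen after the values were seen. The *Per1* stretch is cut to 30 bases because a predicted transcript covers it.
*Nr1d1*, 264 bp upstream in the promoter, over a predicted non-coding RNA, chr11:98775541-98775740: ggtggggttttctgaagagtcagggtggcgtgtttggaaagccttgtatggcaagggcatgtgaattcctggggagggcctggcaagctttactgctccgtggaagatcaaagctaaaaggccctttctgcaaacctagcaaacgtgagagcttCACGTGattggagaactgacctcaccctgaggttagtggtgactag
*Dbp*, 2522 bp downstream in intron 2, chr7:45707670-45707869: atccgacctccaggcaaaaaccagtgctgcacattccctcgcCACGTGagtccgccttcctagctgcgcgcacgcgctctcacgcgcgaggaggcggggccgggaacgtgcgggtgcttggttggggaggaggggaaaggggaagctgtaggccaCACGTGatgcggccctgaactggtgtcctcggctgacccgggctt
*Per1*, 99 bp upstream in the promoter, chr11:69098771-69098800: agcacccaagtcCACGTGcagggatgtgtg

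The 10 genes differed widely in how many sites they held. *Npas2* had 13 sites, *Per2* 10, *Nr1d1* 7, *Cry1* and *Cry2* 6 each, *Nr1d2* 5, *Clock* 4, *Per1* and *Dbp* 2 each, and *Per3* 1. The median was 5.5 sites per clock gene against 1 over all genes. High counts were not particular to the clock genes, since the 6 hepatocyte markers had 7 to 17 sites each. All 10 genes had a site in some list, whereas 54.2% of all genes did. A BCL6 site of the C57BL/6 lists was found at 9 of the 10 genes (31.1% of all genes), a PPARα site at 9 (49.8% of all genes) and a PPARδ site at 7 (21.3% of all genes). *Dbp* was the gene without a C57BL/6 BCL6 site, and *Per3* the gene without a PPARα site. *Per3*, *Nr1d2* and *Dbp* lacked PPARδ.

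Long genes can collect more sites, so each count was also divided by the stretch of genome assigned to the gene. Per 100 kb of that stretch, *Dbp* had 26.2 sites, *Nr1d1* 26.1, *Per2* 16.4, *Cry2* 13.9 and *Per1* 12.1, whereas *Npas2*, with the most sites, had 4.83. Only *Per3*, at 1.84 per 100 kb, lay under the value of 2.07 that all genes gave in sum. The *Dbp* and *Nr1d1* values rest on short stretches, 7.62 kb and 26.9 kb. Of all genes, 0.59% were as dense as *Dbp* or denser and 0.605% as dense as *Nr1d1* or denser. The 10 genes together had 6.54 sites per 100 kb.

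**Figure D1:**
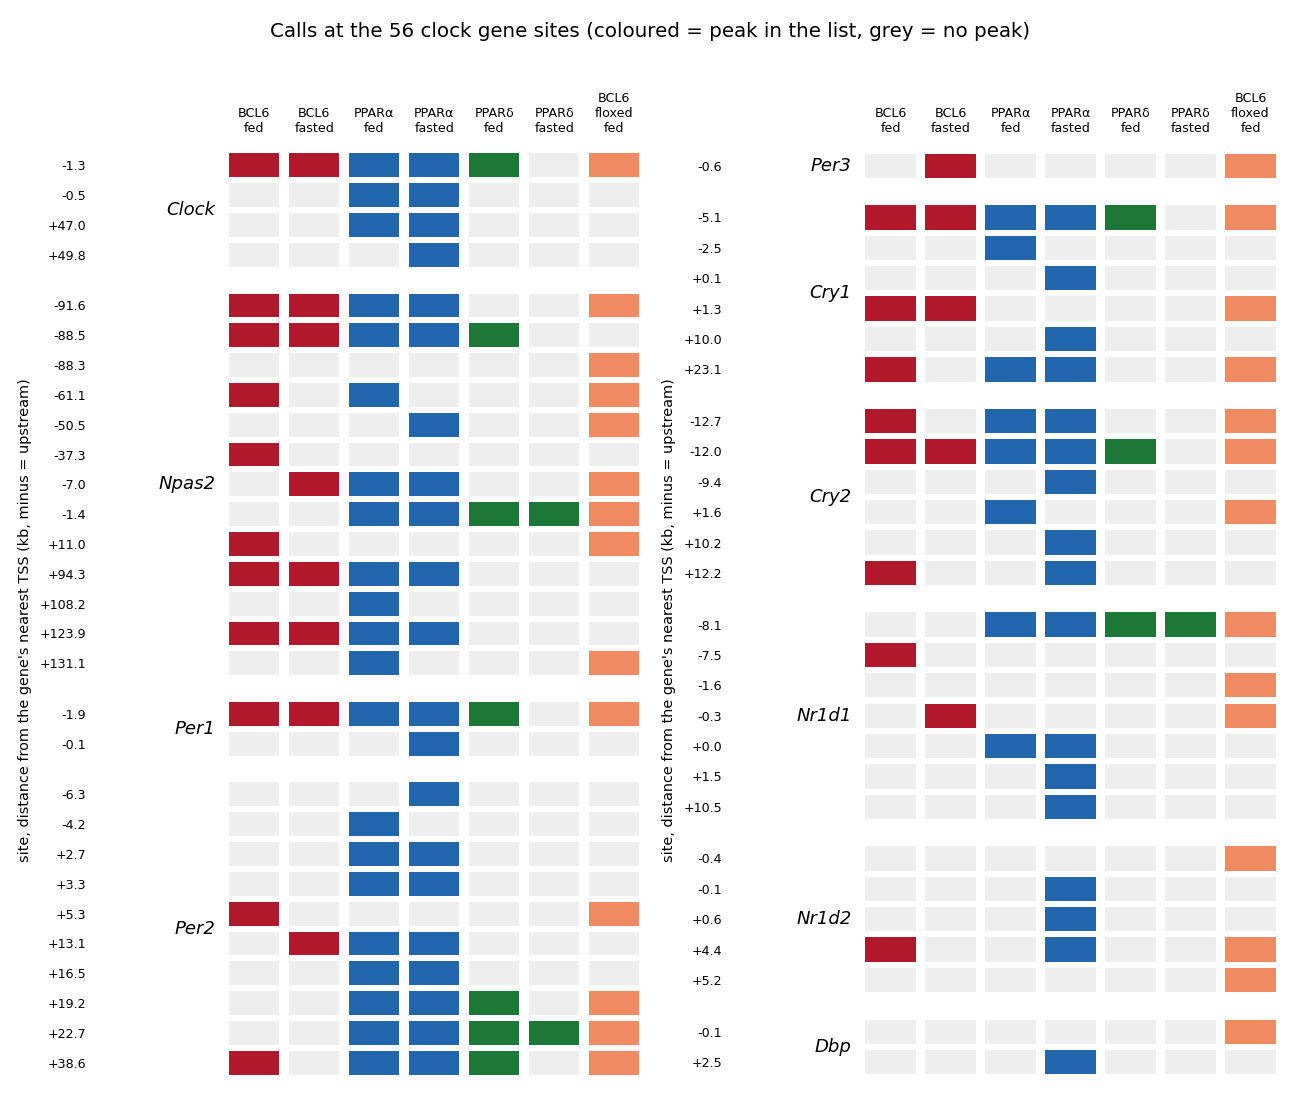
Each line is a site, named by its distance from the nearest TSS of the gene in kb, and each column is a peak list, with a coloured cell where the list has a peak. *Clock*, *Per1*, *Cry1* and *Cry2* each have 1 site called in 6 lists, while most sites of *Nr1d2* and *Dbp* have a single call.

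The number of calls differed between fed and fasted livers in the same direction at the clock genes as over the whole lists, for all 3 factors. BCL6 was called at 19 clock sites in fed and 13 in fasted livers, a change of -31.6% against -38.5% over all BCL6 peaks. PPARα was called at 29 sites in fed and 38 in fasted livers, a change of 31% against 35.8% over all. PPARδ was called at 10 sites in fed and 3 in fasted livers, a change of -70% against -67.3% over all. Of the 9 genes with a BCL6 site, 5 had fewer in fasted than in fed livers (61.4% of all genes with such a site) and 1, *Per3*, had more (11.4% of all). Of the 9 genes with a PPARα site, 7 had more in fasted than in fed livers (59.9% of all genes with such a site) and 1, *Npas2*, had fewer (12.5% of all).

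The 23 BCL6 sites divided into 10 called in fed livers alone, 9 in both states and 4 in fasted livers alone. As shares these were 43.5% (95% Wilson interval 25.6% to 63.2%), 39.1% (22.2% to 59.2%) and 17.4% (6.98% to 37.1%), beside 45.3%, 43.7% and 11% over all BCL6 sites. The intervals cover counting error alone. These BCL6 counts depended on which fed list was used. With a fed call taken from either the C57BL/6 or the floxed list, 22 sites were fed-only, 12 shared and 1 fasted-only. That setting adds floxed sites without a C57BL/6 BCL6 peak, so its total is above 23. With a fed call required in both lists, 7 were fed-only, 6 shared and 7 fasted-only. The 44 PPARα sites divided into 6 fed-only, 23 shared and 15 fasted-only sites, or 13.6% (6.4% to 26.7%), 52.3% (37.9% to 66.2%) and 34.1% (21.9% to 48.9%), beside 12.8%, 51.3% and 35.8% over all PPARα sites. Of 10 PPARδ sites, 7 were fed-only, 3 were called in both states and 0 in fasted livers alone, beside 70.7%, 18.7% and 10.6% over all PPARδ sites. The intervals here were 39.7% to 89.2%, 10.8% to 60.3% and 0% to 27.8%. Every one of these 9 background shares lay inside the interval of the clock sites, so the split by feeding state at the clock genes in the C57BL/6 lists could not be told from that of the lists as a whole with this number of sites.

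**Figure D2:**
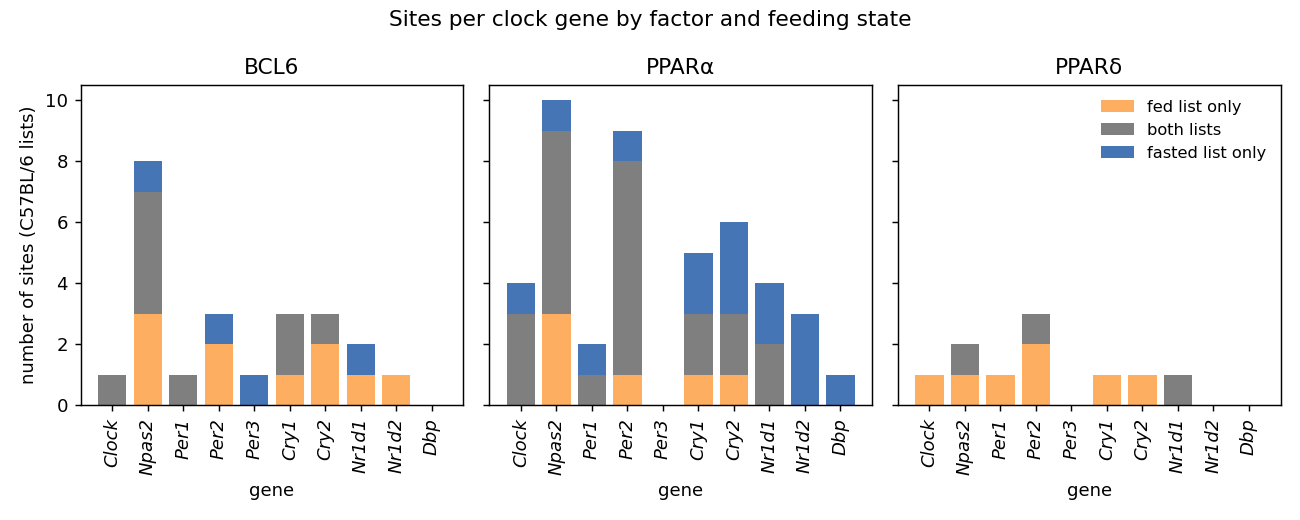
Bars give the number of sites of each factor at each gene, stacked by the C57BL/6 lists in which the site was called. PPARα sites at *Nr1d2* and *Dbp* were all fasted-only, 3 and 1, whereas 7 of 9 at *Per2* were called in both states.

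Among the activators, *Clock* spans chr5:76209868-76305603 on the minus strand. It has more than 1 annotated start, and each distance is from the nearest. The intergenic site 1324 bp upstream of one start had BCL6 and PPARα in both states, PPARδ in fed livers and BCL6 in the floxed list. The other 3 sites had PPARα alone. These were a promoter site called in both states, which lay 473 bp upstream of a start farther inside the gene and in intron 1 of the longer transcript, a site in intron 7, also called in both states, and a fasted-only site in intron 8.

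*Npas2*, at chr1:39193702-39363240 on the plus strand, encodes the relative of CLOCK and held 8 BCL6 and 10 PPARα sites. PPARα was called at 9 of its sites in fed and at 7 in fasted livers. Upstream, BCL6 and PPARα of both states met at 91.6 kb and 88.5 kb, the latter with fed PPARδ, and both were fed-only at 61.1 kb. Within the gene they met at 94.3 kb in intron 3 and at 124 kb in intron 7, again in both states. The site 7.01 kb upstream had PPARα in both states and BCL6 in the fasted C57BL/6 list and the floxed list. Nearer the TSS, at 1380 bp upstream, PPARα and PPARδ were both called in fed and in fasted livers, and BCL6 only in the floxed list. BCL6 was called without PPARα at 37.3 kb upstream and in intron 1, in fed livers in both cases. PPARα stood without a C57BL/6 BCL6 peak at 50.5 kb upstream, where it was fasted-only, and at 108 kb and 131 kb downstream, where it was fed-only. The 4 intragenic sites from 94.3 kb on were nearer to the start of *Rpl31*, a ribosomal protein gene, than to that of *Npas2*.

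Of the repressor genes, *Per1* (chr11:69095108-69109965, plus strand) had 2 sites with unlike calls. Both lay inside this span but before the starts of the curated transcripts, from which the distances are taken. At 1906 bp upstream BCL6 and PPARα were called in both states, PPARδ in fed livers and BCL6 in the floxed list. At 99 bp upstream there was a PPARα peak of fasted livers and nothing else.

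*Per2* (chr1:91415977-91459351, minus strand) had 9 PPARα and 3 BCL6 sites in the C57BL/6 lists, beside 33371 and 17578 over all. Whether this ratio differs from that over all sites was not tested. The floxed list had BCL6 at 4 *Per2* sites. PPARα was called in both states at 7 of the 9, all of them inside the gene, from 2670 bp to 38583 bp downstream of the TSS in introns 1 to 20. Both PPARα sites upstream of the gene were called in 1 state, fed at 4212 bp and fasted at 6303 bp. PPARδ lay at 3 intronic sites, in both states at 22665 bp and in fed livers alone at 19224 bp and 38583 bp. BCL6 was fed-only at 5339 bp and 38583 bp and fasted-only at 13096 bp. At 38583 bp in intron 20, where all 3 factors were called, the BCL6 and PPARα centers were 275 bp apart and joined through other peaks, and the start of *Hes6*, a gene of the hairy and enhancer of split family, was nearer at 6707 bp. That start was also slightly nearer, at 22625 bp, to the site 22665 bp inside *Per2*.

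*Per3* (chr4:150997018-151044707, minus strand) had a single site, in its promoter 586 bp upstream. BCL6 was called there in fasted C57BL/6 livers and in the floxed fed list, but not in fed C57BL/6 livers, and neither PPAR was called. This window held the one D-box among the 56 sites.

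*Cry1* (chr10:85131700-85185054, minus strand) and *Cry2* (chr2:92403646-92434085, minus strand), which encode the cryptochrome repressors, each had 6 sites with 3 BCL6 sites among them. At each gene 1 upstream site carried BCL6 and PPARα in both states with fed PPARδ and floxed BCL6, 5121 bp before *Cry1* and 11958 bp before *Cry2*. The BCL6 and PPARα centers were 7 bp apart at both. *Cry1* had PPARα of fasted livers in its first exon, 67 bp downstream of the TSS in the 5′ UTR, and BCL6 without PPARα in both states at 1302 bp in intron 1. In the same intron, at 23134 bp, BCL6 was fed-only and PPARα was called in both states. At *Cry2*, BCL6 was fed-only and PPARα shared at 12722 bp upstream, while in intron 5, at 12210 bp downstream, BCL6 was called in fed and PPARα in fasted livers, with centers 3 bp apart. The other sites had PPARα in 1 state. At *Cry1* it was fed-only 2474 bp upstream and fasted-only 10016 bp downstream, and at *Cry2* fed-only at 1550 bp downstream and fasted-only at 9432 bp upstream and 10209 bp downstream.

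Of the REV-ERB genes, *Nr1d1* (chr11:98767932-98775377, minus strand) had 7 sites, and no BCL6 site of its C57BL/6 lists met PPARα within 200 bp. PPARα was called in both states at 20 bp downstream of the TSS, and BCL6 in fasted C57BL/6 livers and in the floxed list at 264 bp upstream, with centers 283 bp apart. PPARα and PPARδ were called in both states 8061 bp upstream with floxed BCL6, and a fed-only BCL6 site of the C57BL/6 lists lay 520 bp from it. PPARα of fasted livers alone lay in intron 1 at 1503 bp and beyond the gene at 10493 bp, inside the body of the neighbour *Thra*, a thyroid hormone receptor gene.

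*Nr1d2* (chr14:18204056-18239106, minus strand) had 0 PPARα sites in fed and 3 in fasted livers, at 99 bp upstream, 628 bp downstream and 4375 bp downstream. At the last of these BCL6 was called in fed livers, so BCL6 was called in fed and PPARα in fasted livers at the same site, as in intron 5 of *Cry2*. The centers lay 87 bp apart. This pattern, without PPARδ, was found at 2 of the 16 clock sites with BCL6 and PPARα, against 715 of 13640 over all. The other 2 sites, 447 bp upstream and 5230 bp downstream, were in the floxed list alone.

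*Dbp* (chr7:45705100-45710203, plus strand), the clock output gene, had a floxed BCL6 peak 74 bp upstream of the TSS and a PPARα peak of fasted livers in intron 2. The floxed peak lay inside this span but before the starts of the curated transcripts. No list of fed C57BL/6 livers had a peak at *Dbp*.

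**Figure D3:**
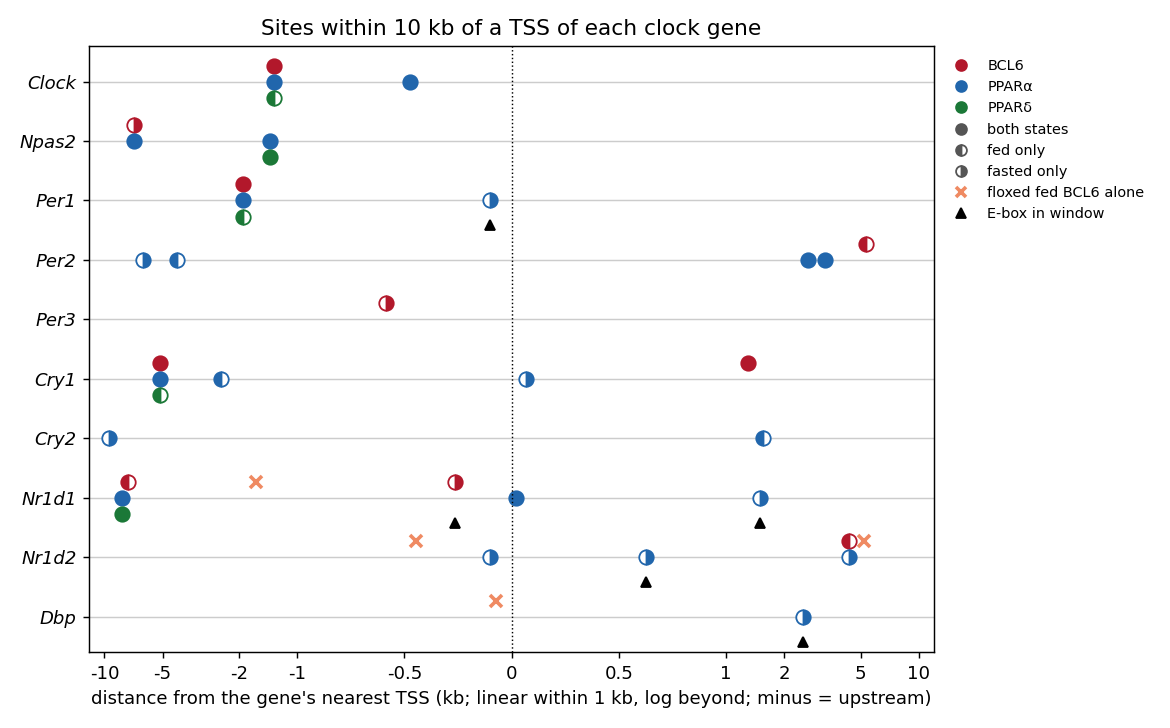
Sites within 10 kb of a TSS of each gene are placed by distance in kb, linear within 1 kb and logarithmic beyond, with fill showing the feeding state of the call and triangles marking windows with an E-box. No BCL6 peak of fed C57BL/6 livers falls in a promoter, and the 5 E-box windows in view lie from 264 bp upstream to 2522 bp downstream.

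Most clock sites lay outside promoters. Of 56 sites, 10 were within 1 kb of the TSS, 21 at 1 to 10 kb, 16 at 10 to 50 kb and 9 beyond 50 kb, and 27 were in introns. In a promoter, taken as 1000 bp upstream to 100 bp downstream of a TSS, there were 9 sites, or 16.1% (8.69% to 27.8%) against 11.8% of all sites. PPARα was called in 5 promoters, those of *Clock*, *Per1*, *Cry1*, *Nr1d1* and *Nr1d2*, 11.4% of its clock sites against 13% over all. It was fasted-only at *Per1*, *Cry1* and *Nr1d2*, 3 of 5 against 60.5% of all PPARα promoter sites. BCL6 of the C57BL/6 lists was called in the promoters of *Per3* and *Nr1d1*, 2 of 23 sites against 3.97% over all, and was fasted-only at both.

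The calls of the 2 fed BCL6 lists at clock promoters were set side by side. The fed C57BL/6 list had 0 promoter sites among 19 (0% to 16.8%, against 3.78% over all). The floxed list had 4 of 28, or 14.3% (5.7% to 31.5%, against 6.51% over all), at *Per3*, *Nr1d1*, *Nr1d2* and *Dbp*. None of these 4 had a fed C57BL/6 peak, which was so for 60.7% of all floxed promoter sites (interval of the 4 sites, 51% to 100%). All 3 shares over all sites lay inside the intervals of the clock sites, the intervals of the 2 lists overlapped, and the difference between the lists was not tested. The 2 sets of mice differ in genotype and possibly in other ways, which cannot be told apart here. Of the 19 fed C57BL/6 BCL6 sites, 13 had a floxed peak, or 68.4% (46% to 84.6%) against 69.5% over all. By state this held for 7 of 10 fed-only sites (39.7% to 89.2%, against 51.1% over all) and 3 of 4 fasted-only sites (30.1% to 95.4%, against 49.1% over all). It held for 6 of 9 sites called in both states (35.4% to 87.9%), and here the 88.7% over all lay just above the interval. The 3 both-state sites without a floxed peak were all at *Npas2*. Of the 28 floxed sites, 12 had no C57BL/6 BCL6 peak, against 32.2% over all. Of these 12, 5 had no peak of any other list, which made 8.93% of clock sites against 5.01% of all sites. The 5 lay at *Nr1d2* (2 sites), *Npas2*, *Nr1d1* and *Dbp*, and the one at *Npas2* was 288 bp from a BCL6 site of both C57BL/6 lists.

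BCL6 and PPARα met at 16 sites of 7 genes, which made 69.6% of the BCL6 sites (49.1% to 84.4%, against 77.6% over all) and 36.4% of the PPARα sites (23.8% to 51.1%, against 40.9% over all). At 1 of them, in intron 20 of *Per2*, the centers were 275 bp apart and joined only with the floxed list. Without joining that list the share of BCL6 sites with PPARα was 65.2%. Their centers lay 3 to 275 bp apart with a median of 32.5 bp, and at 10 of the 16 they were under 50 bp apart. These gaps were not measured over all sites with both factors. Whether the close spacing is particular to the clock genes was therefore not tested. At 8 of the 16 both factors were called in both states, against 44% over all. BCL6 was called without PPARα at 7 sites, 2 each at *Npas2* and *Nr1d1* and 1 each at *Per2*, *Per3* and *Cry1*.

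PPARδ never stood alone at the clock genes. All 10 of its sites had PPARα (72.2% to 100%, against 85% over all), and 6 had BCL6 too. These 6 sites with all 3 factors lay at 6 different genes, *Clock*, *Npas2*, *Per1*, *Per2*, *Cry1* and *Cry2*, whereas 13.1% of all genes had such a site. As a share of sites they were near the background, 10.7% of clock sites against 11.5% of all sites. Without joining the floxed list, 5 genes had such a site. PPARδ was fed-only at each of the 6 (61% to 100%, against 76.5% of all sites with the 3 factors). BCL6 and PPARα were also called in both states at 5 (43.6% to 97%, against 45.6% over all), and at the *Per2* site BCL6 was fed-only. The 3 sites where PPARδ was called in both states, at *Npas2*, *Per2* and *Nr1d1*, had PPARα in both states, no C57BL/6 BCL6 peak and a floxed BCL6 peak. Over all PPARδ sites called in both states, 22.6% had PPARα in both states and no C57BL/6 BCL6 peak, a share outside the interval of these 3 sites (43.9% to 100%), which were described after their calls were seen. The remaining PPARδ site, at *Per2*, was fed-only and had a floxed but no C57BL/6 BCL6 peak.

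**Figure D4:**
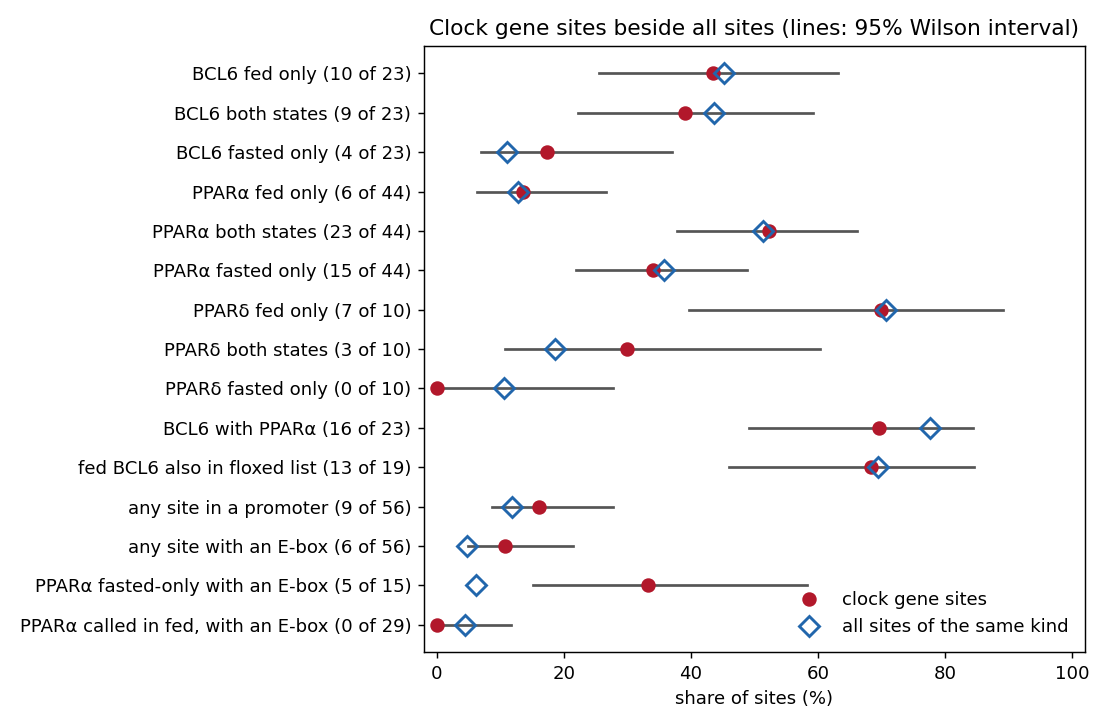
Red points give the share of clock gene sites with its 95% Wilson interval, and blue diamonds the share of all sites of the same kind, in percent. The diamonds lie inside the intervals for the splits by feeding state. E-boxes were in 33.3% (5 of 15) of the fasted-only PPARα clock sites against 6.26% over all, a comparison chosen after the calls were seen.

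E-boxes were found in 6 of the 56 windows, 10.7% (5% to 21.5%) against 4.73% of all sites, a share just under the lower bound. Besides the printed *Per1*, *Nr1d1* and *Dbp* sites they were in intron 3 of *Cry2* and in intron 1 of *Nr1d1* and of *Nr1d2*. The *Dbp* window held 2. When these 6 were looked up in the lists, a pattern seen after the fact, all 6 had a peak in fasted and none in fed C57BL/6 livers. Sites of that kind made up 26.8% of clock sites (17% to 39.6%, against 27.7% over all) and 36.4% of all E-box sites. At 5 of the 6 the fasted peak was PPARα without BCL6, so that 5 of the 15 fasted-only PPARα clock sites held an E-box, or 33.3% (15.2% to 58.3%), against 6.26% of all fasted-only PPARα sites. Of the 29 PPARα clock sites called in fed livers, 0 held one (0% to 11.7%), against 4.44% over all. The *Nr1d1* promoter site was the exception, with BCL6 in fasted C57BL/6 livers and, in the floxed list, in fed livers. The shares over all sites were not matched for distance to a TSS or for genes driven through E-boxes. The intervals also treat sites of the same gene as independent.

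For the other elements the share over all sites lay inside the interval of the clock sites. A D-box was in 1 window (1.79%, 0.316% to 9.45%) against 1.57% of all sites, the RORE in 5 (8.93%, 3.87% to 19.3%, against 4.63% over all), the BCL6 element in 6 (10.7%, 5% to 21.5%, against 10.9% over all) and the DR1 in 4 (7.14%, 2.81% to 17%, against 13.1% over all). The ROREs lay at *Npas2* (3) and *Cry1* (2). Of the 7 sites with BCL6 and no PPARα, 4 held a BCL6 element, against 30.7% of all such sites, and of the 16 with both factors 1 did, against 10.9%. A match describes the letters alone, and no binding was measured at a single element.

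A further 12 genes of the clock, its kinases and its ubiquitin ligases had 106 sites, a median of 6.5 and a sum of 6.04 per 100 kb, close to the value of the 10 genes. *Csnk1e* and *Fbxl21* had 0 sites. *Rora*, the receptor that opposes REV-ERB at the RORE, had 44 over its 834 kb, with 26 BCL6 sites in fed and 15 in fasted livers and 30 PPARα sites in fed and 35 in fasted livers. *Hlf*, a relative of *Dbp*, had 15, 8 of them with PPARδ in fed and 0 in fasted livers. *Nfil3*, a repressor that competes with DBP at the D-box, had 10, with BCL6 at 5 in fed and 2 in fasted livers and PPARα at 8 in fed and 7 in fasted livers. *Tef*, also a relative of *Dbp*, had 2 PPARα sites in fed and 5 in fasted livers, and *Ciart*, a repressor of CLOCK, had 0 and 2. *Bhlhe40*, an E-box repressor, had 8 PPARα sites, no C57BL/6 BCL6 site and 4 floxed BCL6 sites.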

How the data were processed

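Peaks were read from 7 deposited lists of positions in mm10, each made over 3 ChIP-seq libraries. Per the paper's methods and the submitters' processing notes, the authors aligned reads with Bowtie, called peaks on pooled replicates against input with HOMER, and filtered them with DESeq2 on individual libraries. The deposited lists hold no other measure, so depth is unknown and no normalization, filter on strength or test was possible. The number of libraries (3 animals per list) limits the precision, and confidence intervals cover counting error alone. Peaks were joined into sites by single linkage of centers within 200 bp. Genes and sequences came from RefSeq on GRCm38.p6. Elements were searched in 200 bp windows without masking repeats, and shares were set beside those of all sites. Alternatives changed the joining distance, the gene assignment, the BCL6 lists and the windows. The 10 genes, the 12 further clock genes, the markers and the elements were chosen with earlier results of these data known. All 10 genes are named with every kind of call, neighbours only where nearer to a site, and 1 window is shown per gene by the rule given in the text. The functions were tested on simulated peaks. Samples without a peak list were not analysed here. The work was done in Python 3.11.15 with SciPy 1.17.1, NumPy 2.4.6 and, for plots, Matplotlib 3.10.9.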

Additional observations from a re-analysis of the deposited data

How the results depend on the processing

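Of 214 values computed under alternative settings, all of them counts or shares, 201 stayed within 1.5 times the count or inside the interval given in the text. The other 13 moved. Joining peaks at 100 bp or 400 bp, or by overlap of intervals, gave 62, 53 and 56 clock sites, and assigning sites by the nearest TSS only or within 10 kb gave 51 and 47. BCL6 counts depended on the floxed list. With a fed call in either fed list, 22 sites were fed-only, 12 shared and 1 fasted-only, a larger total since floxed sites were added. With a fed call required in both, 7 were fed-only, 6 shared and 7 fasted-only. *Npas2* kept 7 sites within a reach of 10 kb, and without joining the floxed list *Nr1d2* had 3 sites and *Dbp* 1. Genes with a site of all 3 factors numbered 4 within a reach of 10 kb. They numbered 5 at a joining distance of 100 bp, by the nearest TSS only or without joining the floxed list, and 6 otherwise. In windows of 50 bp the shares were 3.57% for the E-box (1.18% of all sites), 0% for the D-box (0.39%), 3.57% for the RORE (1.44%), 3.57% for the BCL6 element (3.25%) and 1.79% for the DR1 (4.21%). With 1 mismatch fewer, the BCL6 element was in 3.57% (1.23% of all) and the DR1 in 1.79% (3.06%). As an alternative chosen after seeing the data, E-box sites were counted by feeding state in other windows. In 50 bp 2 had fasted and 0 fed C57BL/6 calls, with repeats masked 6 and 0, and in 400 bp 8 and 1. No paired analysis was possible because the replicates were pooled into 1 list per group and no value comes from a test. For the same reason no replicate could be left out, and a stricter peak threshold needs scores that the lists do not hold.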
